A study of Mus musculus with 20 samples.

Results

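Enzymes that alter foreign compounds and make them easier to excrete were followed in the proximal colon (PC) of mice fed 4 levels of resistant potato starch (RPS). The group comprised 66 of the 12701 genes in the deposited table. They were the protein-coding genes whose GENCODE symbol begins with Cyp and a digit, or with Ugt1, Ugt2, Gsta, Gstm, Gstp, Gstt, Gsto, Mgst or Sult. The choice among the genes of the table was by name, but how the table came to hold these genes is not given in the sources used here. Of 166 protein-coding GENCODE genes with such names, the other 100 were not analysed here. By family there were 5 Cyp2c, 7 Cyp2d, 6 other Cyp2, 2 Cyp3, 7 Cyp4 and 4 further Cyp genes, 3 Ugt1 and 4 Ugt2 genes, 5 Gsta, 7 Gstm, 3 Gstp, 3 Gstt, 1 Gsto and 3 Mgst genes, and 6 Sult genes.

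All animals were C57BL/6 mice, an inbred laboratory strain, that began the Total Western Diet (TWD) at 3 weeks of age. The TWD is a purified rodent diet that mimics typical American nutrient intake, and every group, the control included, ate it throughout. After 6 weeks the TWD was given for 3 more weeks either alone (0% RPS) or with 2, 5 or 10% raw potato starch. RNA came from a short piece of colon next to the cecum, with 5 mice and 5 libraries per diet. This was bulk tissue, so in every result below fewer cells of a type and less RNA per cell cannot be told apart.

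Xenobiotic metabolism is commonly described in phases. Cytochrome P450 enzymes (Cyp) are heme monooxygenases that insert oxygen into drugs, plant compounds, fatty acids, sterols and bile acids. Conjugating enzymes then attach a polar group, which is glucuronic acid for the UDP-glucuronosyltransferases (Ugt), glutathione for the glutathione S-transferases (Gst and Mgst) and sulfate for the sulfotransferases (Sult). In the gut many of these enzymes are made by the epithelium, which meets compounds from the diet and from bacteria. The aryl hydrocarbon receptor (Ahr), the pregnane X receptor (Nr1i2) and the oxidative stress factor Nrf2 (Nfe2l2) are known regulators of many of these genes.

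The sequences below precede the start sites of some of the members named in the diet comparisons. Cyp2c68 was called at 10% RPS with all libraries. Cyp2d26, Cyp4b1 and Ugt1a1 were called at 5 or 10% RPS when replicate 2 of 0% RPS was left out. Mgst1 is 1 of the members past the adjusted p alone. Each gives the 250 bases before the start site, 5′ to 3′ on the strand of the gene, from RefSeq on GRCm38.p6, an older build than that of the counts. Capitals mark matches to GCGTG, the core of the element bound by Ahr, or to TGACNNNGC, the core of the antioxidant element bound by Nrf2, on either strand.
Cyp2c68 promoter, chr19:39741102-39741351, minus strand: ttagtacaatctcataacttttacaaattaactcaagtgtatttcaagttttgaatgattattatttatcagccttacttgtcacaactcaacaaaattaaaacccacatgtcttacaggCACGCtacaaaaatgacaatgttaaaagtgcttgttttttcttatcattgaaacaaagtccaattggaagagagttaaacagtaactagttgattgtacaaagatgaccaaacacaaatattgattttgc
Cyp2d26 promoter, chr15:82794246-82794495, minus strand: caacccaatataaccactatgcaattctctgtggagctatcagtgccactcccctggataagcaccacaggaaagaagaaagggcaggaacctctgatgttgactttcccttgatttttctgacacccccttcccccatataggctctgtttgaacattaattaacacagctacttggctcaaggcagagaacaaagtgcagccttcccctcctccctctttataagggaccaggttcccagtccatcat
Cyp4b1 promoter, chr4:115647722-115647971, minus strand: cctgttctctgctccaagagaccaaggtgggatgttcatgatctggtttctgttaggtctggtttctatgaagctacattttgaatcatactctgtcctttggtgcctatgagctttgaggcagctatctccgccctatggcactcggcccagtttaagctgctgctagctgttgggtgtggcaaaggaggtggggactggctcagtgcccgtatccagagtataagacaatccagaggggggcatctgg
Ugt1a1 promoter, chr1:88211709-88211958, plus strand: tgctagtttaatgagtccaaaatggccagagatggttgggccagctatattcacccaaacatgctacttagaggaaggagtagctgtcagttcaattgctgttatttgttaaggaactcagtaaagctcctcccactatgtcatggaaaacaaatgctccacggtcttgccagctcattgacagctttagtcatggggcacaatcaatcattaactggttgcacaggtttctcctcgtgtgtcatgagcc
Mgst1 promoter, chr6:138140277-138140526, plus strand: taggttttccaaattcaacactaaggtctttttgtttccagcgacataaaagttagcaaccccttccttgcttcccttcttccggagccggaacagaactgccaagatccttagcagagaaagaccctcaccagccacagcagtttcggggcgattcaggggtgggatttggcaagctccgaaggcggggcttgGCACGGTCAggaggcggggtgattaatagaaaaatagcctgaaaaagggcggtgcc
In these windows Cyp2c68 held 1 match to GCGTG and Mgst1 held 1 match to TGACNNNGC. Cyp2d26, Cyp4b1 and Ugt1a1 held neither. Mgst1 has another start site in the reference, whose window held neither motif. The Mgst1 window printed was chosen because it holds the match, so that match is no result. Promoters were matched for 56 of the 66 members, some with several start sites. Over windows of 300 bases, which add the 50 bases after the start, GCGTG was found in 20 of 69 member promoters (29%) and in 32.4% of all 32851 promoters. TGACNNNGC was found in 8 of 69 (11.6%) and in 12.4% of all promoters.

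Another sequence shows a limit of reads of 50 bases in these families. The Ugt1 genes have first exons of their own and share the remaining ones, and coding bases 868 to 917 of 1608 are identical in Ugt1a1, Ugt1a6a and Ugt1a7c.
Stretch shared by the Ugt1 genes: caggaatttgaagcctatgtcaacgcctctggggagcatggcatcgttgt
A read from this stretch cannot be assigned to any single one of the 3 genes. Of all windows of 50 bases, 85.7% of those in Ugt1a1, 77.1% in Ugt1a7c and 57.4% in Ugt1a6a were also found in another gene. The share was 91.8% for Gsta1, 54.5% for Cyp2c69, 52.5% for Gstp2, 37.3% for Cyp2c68 and 31% for Gstp1. It was 11.3% for Cyp4b1, 7.1% for Cyp2d26, and 0% for Mgst1 and Sult1b1. How the authors' counting treated such reads is not given in the sources used here, so values of genes with large shares are uncertain.

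The libraries held 20581013 to 35083751 counts. Values are given as normalised counts, in which DESeq2 size factors correct for depth. The 7 epithelial markers summed to 217538 to 293772 over the 20 libraries and the 6 smooth muscle markers to 110190.0 to 268552. Replicate 2 of 0% RPS stood apart. It had 652 normalised counts of Osr2, used here as a marker of the proximal position, against 4728 to 6904 in the other 19 libraries, and 1024 of Hoxa13, a gene of the hindgut's distal end, against 34.5 to 198. It also had the lowest Car1, a carbonic anhydrase of colonocytes (70115, against 239322 to 483922), and the highest smooth muscle sum. Other colonocyte markers did not follow Car1. This library had the highest Slc26a3 (12364, against 3571 to 7065) and Aqp8 (6463, against 98 to 3003). Car4, Krt20 and Guca2a lay within the range of the other libraries. Comparisons with 0% RPS are therefore given with replicate 2 and, for the calls, the family sums and most of the named members, also without it.

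The difference of that library reached most of the enzyme families. Members took 0.47% of its counts and 0.631 to 0.885% of the counts of the other 19 libraries. Among the 65 members averaging 10 or more normalised counts, it was the lowest of the 20 libraries for 29 (44.6%), against 12.4% of all genes at that level, and the highest for 5 (7.69%, against 13.9%). It was lowest for all 3 Ugt1, all 3 Gstp and both Cyp3 genes, and for 4 of 7 Cyp4 genes. Its level was 0.0892 of the mean of the other 0% RPS libraries for Cyp2c66, 0.109 for Cyp4b1, 0.117 for Cyp3a44, 0.144 for Cyp2d26 and 0.166 for Ugt1a1. The Gstm genes went the other way, with all 7 between 1.08 and 1.37 times that mean. For 46 of the 65 members replicate 2 was below the mean of the other 0% RPS libraries. Leaving it out raises the 0% RPS mean of these members, so lower values without it are partly set by that choice. The part of position along the colon in these values was not tested.

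**Figure D1:**
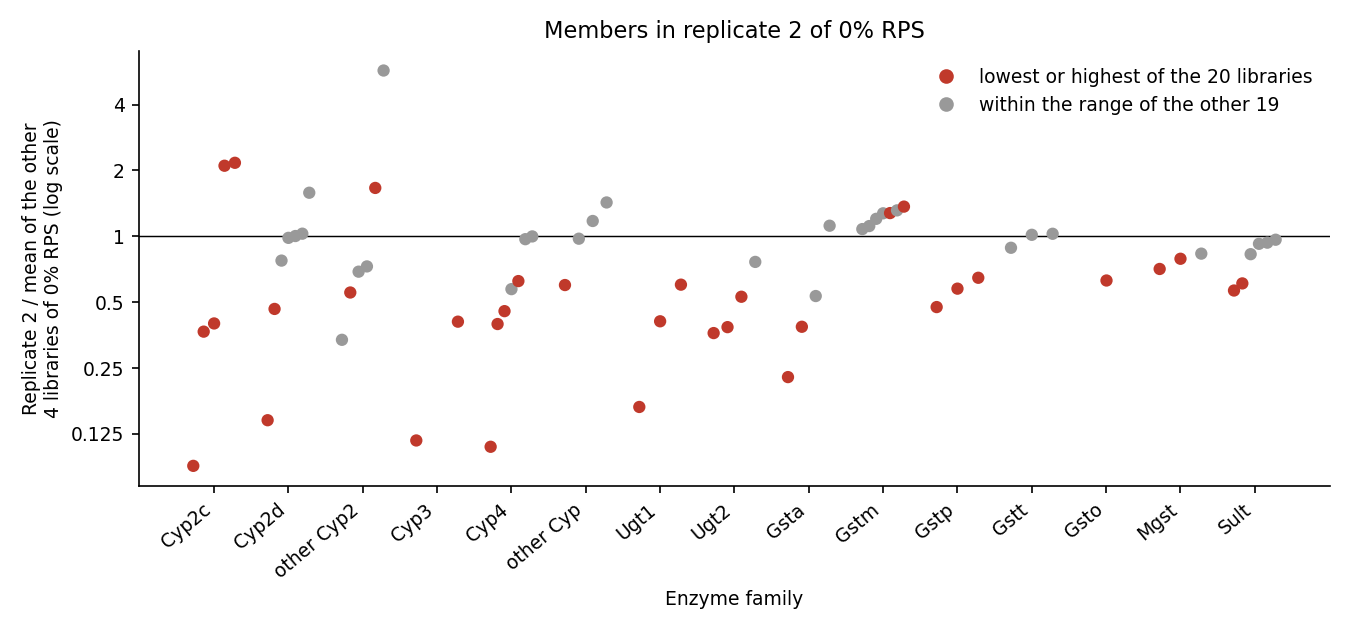
Ratio of replicate 2 of 0% RPS to the mean of the other 4 libraries of 0% RPS (log axis) for each of 65 members, by family. Red points are members for which this library was the lowest (29) or highest (5) of the 20 libraries, and all 7 Gstm genes lie above 1 while the 3 Ugt1 genes lie below it.

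As a level per kilobase of transcript, the members ranged from 2.21 normalised counts (Gsta13) to 27067 (Cyp2c55). Cyp2c55, which hydroxylates and epoxidizes polyunsaturated fatty acids, stood at 26392 ± 10213 per kilobase at 0% RPS and 28186 ± 6133 at 10% RPS (SD, n = 5). It alone gave 17.9 to 35.6% of all member counts in a library. Next came the microsomal glutathione transferases Mgst3 (7728 per kilobase as the mean over 20 libraries) and Mgst2 (7712). Their order did not go beyond the spread, since at 0% RPS Mgst3 had 7397 ± 1139 and Mgst2 8224 ± 1385 per kilobase. Sult1a1, the phenol sulfotransferase, followed at 6317, then Cyp2c65 at 5527 and Gsto1, an omega class transferase with reductase activity, at 5347. Sult1d1 had 4099, Ugt2b34 3662, Cyp2d34 3279.9 and Gstm1 2773 per kilobase.

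The highest gene of the other families was Cyp3a13 for Cyp3 (2180.0 per kilobase), Cyp4b1 for Cyp4 (1813), Gstp1 for Gstp (2442), Ugt1a7c for Ugt1 (912), Gsta4 for Gsta (866), Gstt3 for Gstt (589.6) and Cyp27a1, the sterol 27-hydroxylase, for the remaining Cyp genes (499). Families were mixed in level, and the lowest Cyp2c gene stood at 23.6 and the lowest Ugt2 gene at 36.4 per kilobase. Gsta13 had 0 counts in at least 1 library, did not pass edgeR's filter and received no adjusted p.

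**Figure D2:**
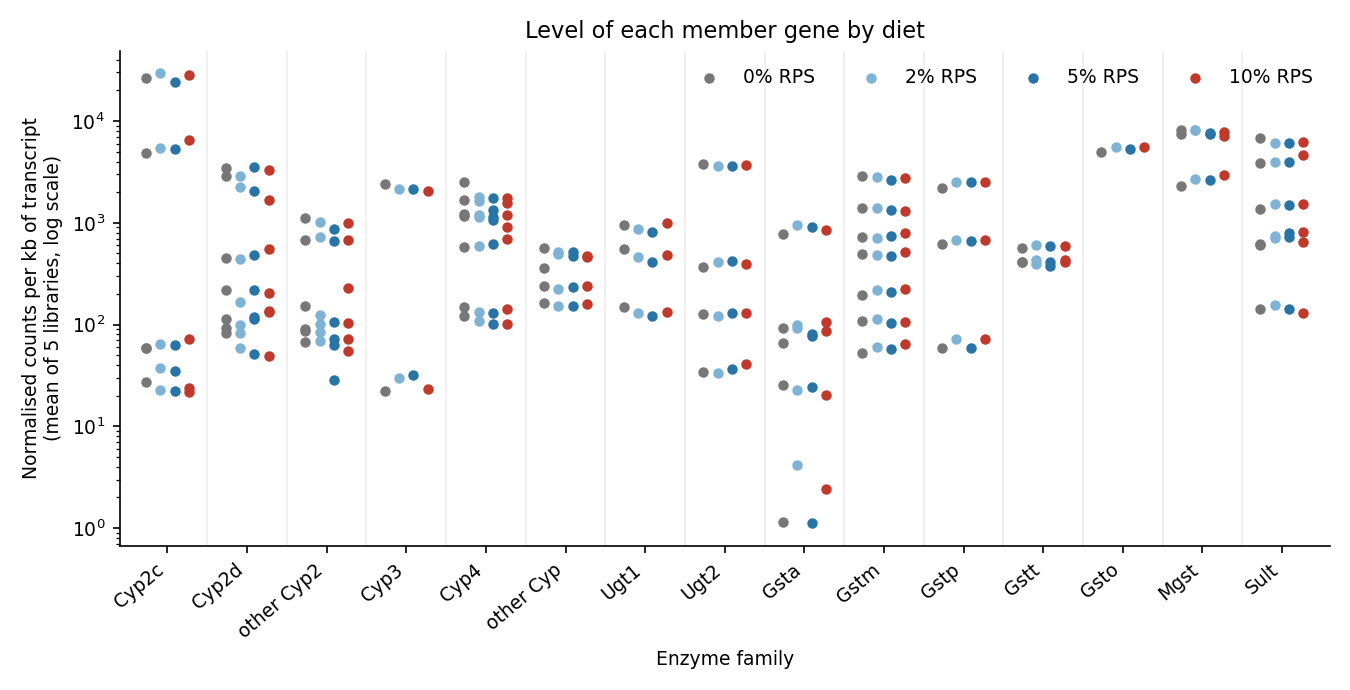
Mean normalised count per kilobase of transcript (log axis) of the 66 members at each diet, by family (n = 5 libraries per diet). Cyp2c55 is the highest member and Gsta13 the lowest.

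Family sums of normalised counts are given for 6 of the families, as a description with no test. The Cyp2c genes together had 62483 ± 23141 normalised counts at 0% RPS and 69181 ± 12666 at 10% RPS, Cyp2d 12778 ± 3859.9 and 10711 ± 2152, and Cyp4 19767 ± 5889.5 and 16450.5 ± 2357. Ugt1 had 5415 ± 1571 and 5269.7 ± 459.7, Ugt2 13169.7 ± 3794 and 12934 ± 2349.9, and Sult 24407 ± 2797 and 26271 ± 1729.8. Without replicate 2 the sums at 0% RPS (n = 4) were 71424 ± 13456 for Cyp2c, 14079 ± 2931 for Cyp2d, 22170.0 ± 2785 for Cyp4, 6109 ± 284 for Ugt1, 14549 ± 2552 for Ugt2 and 25555 ± 1281 for Sult. All members together had 199654 ± 43014 at 0%, 205288 ± 20803 at 2%, 190062 ± 16771 at 5% and 203317 ± 16476 at 10% RPS, and 218661 ± 7656 at 0% RPS without replicate 2. For Cyp2d, Cyp4 and Ugt1 the 10% RPS mean was then lower by more than the SD at 0% RPS and that at 10% RPS. The same held for Cyp3, not among the 6, with 8063 ± 1181 at 0% RPS without replicate 2 and 6082 ± 1514 at 10% RPS. The Ugt1 mean was lowest at 5% RPS (4417 ± 582). For all members together the 10% RPS mean was lower by more than the SD at 0% RPS but by less than that at 10% RPS. The libraries of 10% RPS ranged from 178029 to 221438 in this sum. With all libraries none of these means was lower by more than the SD at 0% RPS. The median log2 fold change of the 65 members against 0% RPS was -0.03 at 2%, -0.03 at 5% and 0.02 at 10% RPS, beside -0.01, -0.01 and 0.00 over 12348 genes. Without replicate 2 of 0% RPS it was -0.04, -0.09 and -0.05, beside 0.00, -0.01 and 0.00.

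Calls were made in DESeq2 where the p-value, adjusted by Benjamini-Hochberg over the whole table, was at most 0.05 and the fold change at least 1.5. At 2% RPS 0 members were called (0.0239% of all genes tested), and 3 had an unadjusted p under 0.05 in DESeq2 (4.55%, against 8.7% of all genes). At 5% RPS 0 members were called (0.438% of all genes), with 7 under 0.05 unadjusted (10.6%, against 16.6%). At 10% RPS 1 member was called, Cyp2c68, which is 1.52% of the members beside 0.9% of all genes, with 13 under 0.05 unadjusted (19.7%, against 18.8%). Without regard to fold, 3 members passed the adjusted p at 10% RPS (4.6% of all genes), the others being Mgst1 and Sult1b1. edgeR called 0 members at 2, 5 and 10% RPS (0%, 0.0566% and 0.323% of all genes), with 2, 4 and 11 members at an unadjusted p under 0.05 (8.09%, 15.9% and 18% of all genes). Between the starch diets 0 members were called by either tool at 10 against 5% (0.00796% of all genes in DESeq2), 10 against 2% (0.0557%) or 5 against 2% RPS (0%). Their unadjusted p was under 0.05 for 2, 4 and 3 members in DESeq2 (4.11%, 9% and 2.86% of all genes) and for 2, 3 and 3 in edgeR (3.72%, 8.52% and 2.59%).

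Without replicate 2 of 0% RPS the calls differed. At 2% RPS 0 members were called by DESeq2 (0.0398% of all genes) or edgeR (0%), with 13 and 11 at an unadjusted p under 0.05 (10.3% and 9.59% of all genes). At 5% RPS 3 members were called, all lower (4.55% of members, beside 0.827% of all genes), and these were Cyp4b1, Cyp2d26 and Ugt1a1. At 10% RPS 2 members were called, both lower (3.03%, beside 1.6% of all genes), and these were Cyp2d26 and Cyp4b1. edgeR called Cyp4b1 at 5% (0.154% of all genes) and Cyp2d26 at 10% RPS (1.05%). In DESeq2 15 and 21 members had an unadjusted p under 0.05 (18.2% and 21.8% of all genes), and in edgeR 14 and 21 did (17.5% and 21.2%). Without regard to fold, 5 members passed the adjusted p at 5% RPS (7.58%, beside 4.1% of all genes) and 6 at 10% RPS (9.09%, beside 7.66%). All of these members were lower. Among all genes 178 of 515 were lower at 5% and 362 of 963 at 10% RPS (1.42% and 2.88% of the genes tested). The library left out was the lowest of the 20 for 44.6% of the members averaging 10 or more, against 12.4% of such genes. The direction of these calls is therefore tied to leaving it out and is no separate result. The comparisons with 0% RPS share their control libraries.

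**Figure D3:**
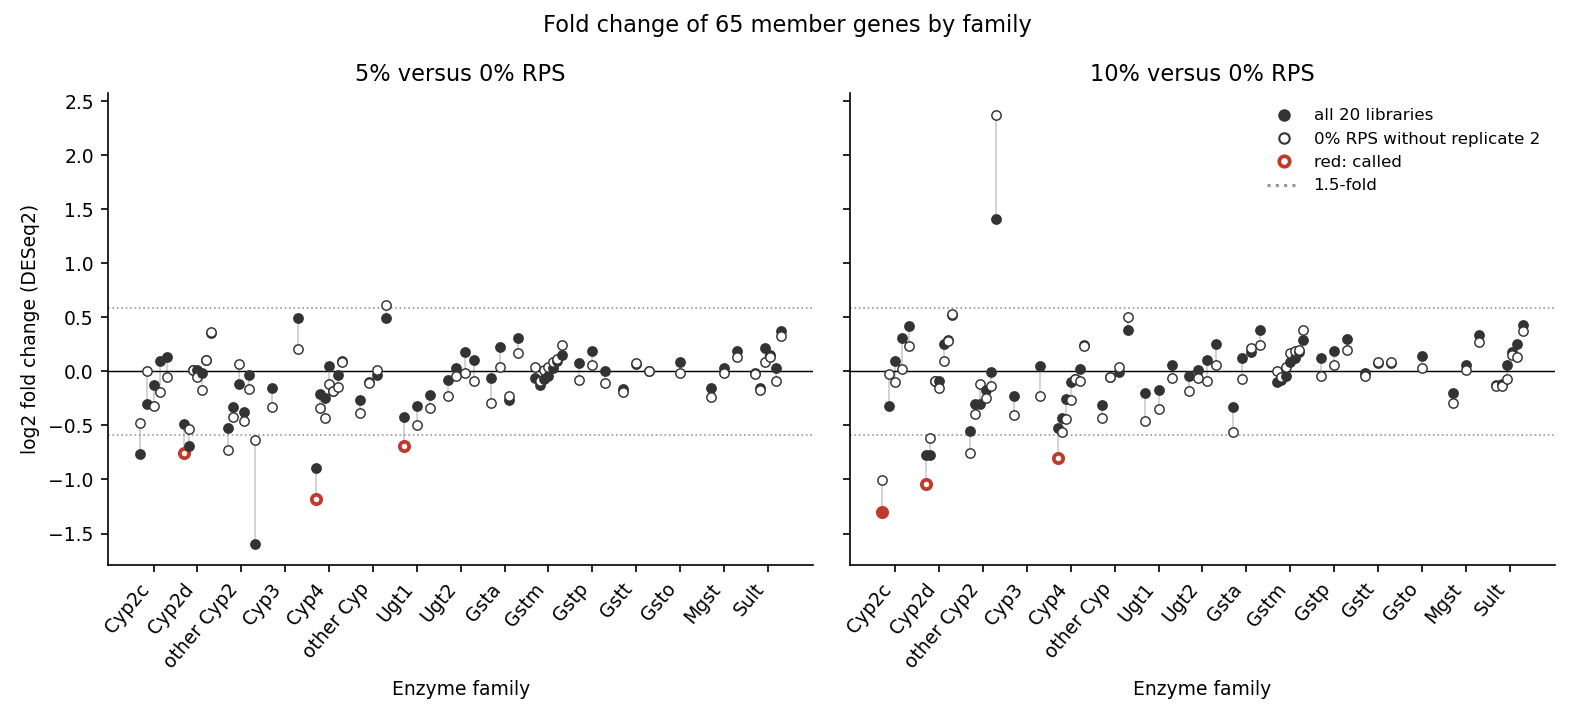
log2 fold change (DESeq2) of 65 members against 0% RPS, by family, where filled points use all 20 libraries and open points leave out replicate 2 of 0% RPS. Red marks called members, which are Cyp2c68 at 10% RPS with all libraries and, without that replicate, Cyp2d26, Cyp4b1 and Ugt1a1 at 5% and Cyp2d26 and Cyp4b1 at 10% RPS.

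The Cyp2c genes lie in a cluster on chromosome 19, and their products oxidize arachidonic acid and drugs. Cyp2c68 (ENSMUSG00000074882, GRCm39 chr19:39676779-39729553, minus strand) was at a low level, with 13 to 173 raw counts per library. Its normalised counts were 96.5, 180.1, 104, 49.4 and 93.3 at 0% RPS, 81, 71.1, 42, 90.9 and 51.3 at 2%, 28.2, 57.2, 30.8, 99.4 and 92.4 at 5%, and 43.8, 57.8, 15.1, 54.3 and 40.6 at 10% RPS. The highest value was replicate 2 of 0% RPS, and at 10% RPS 2 libraries lay above the lowest library of 0% RPS, so the diets overlapped. Cyp2c68 fell by 1.30 on the log2 scale (SE 0.39) at 10% RPS, which is 2.46-fold lower, with an adjusted p of 0.0302 in DESeq2 and 0.102 in edgeR. Its log2 fold change was -0.64 at 2% RPS (adjusted p = 0.639) and -0.76 at 5% RPS (0.298).

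Over the 4 diets Cyp2c68 fell by 0.12 on the log2 scale per percent RPS (SE 0.0362, adjusted p = 0.0346). No other member was called for a trend (1.52% of members, beside 4.29% of all genes, with no fold threshold), and edgeR called 0 members (1.33% of all genes). The unadjusted p of the trend was under 0.05 for 15 members in DESeq2 (19.1% of all genes) and for 14 in edgeR (18.3%). Without replicate 2 of 0% RPS the difference at 10% RPS was -1.01 (adjusted p = 0.091). The call was also lost without replicate 5 of 0% RPS (0.0712), replicate 3 of 10% RPS (0.116) or replicate 5 of 10% RPS (0.0894). The trend was lost without replicate 1, 2 or 5 of 0% RPS, replicate 4 of 2% RPS, or replicate 3 or 5 of 10% RPS. Windows of Cyp2c68 were found most often in Cyp2c40 (29.9%), which was not analysed here, and 15.8% of them in Cyp2c69.

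Ttr, listed here as a liver marker although its source in this tissue was not examined, also differed at 10% RPS. Alb and Ttr summed to 1287 in replicate 2 of 0% RPS and to 32.8 to 466 in the other libraries. Ttr was called lower at 10% RPS (log2 -1.43, SE 0.43, adjusted p = 0.0301) and stood at -0.71 (0.183) without that replicate, and Alb was not called. Their part in the result for Cyp2c68 was not tested.

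The abundant Cyp2c genes passed no test. Cyp2c55 had 73188, 22193, 68983, 54649 and 45306 normalised counts at 0% RPS and 71231, 51611, 67879, 44470.0 and 47091 at 10% RPS, and the diets overlapped. Its log2 fold change was 0.09 with SE 0.24, adjusted p 0.858, and -0.10 without replicate 2 of 0% RPS. Cyp2c65 had 10219.9, 4257, 12159, 10194 and 10042 at 0% RPS and 12766, 10626, 13579, 13683 and 11987 at 10% RPS. Replicate 2 of 0% RPS was the lowest of these by far, and the difference came to 0.42 in log2 (SE 0.17, adjusted p = 0.147) with it and 0.23 (SE 0.09, adjusted p = 0.079) without it.

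The Cyp2d family oxidizes many amine drugs. Cyp2d26 (ENSMUSG00000022445, GRCm39 chr15:82674300-82678509, minus strand) had 5180.2, 857, 4871, 6568 and 7135 normalised counts at 0% RPS. It had 2664, 3321, 5635, 4297 and 3288 at 2%, 2576, 4200.2, 3431, 3109 and 4288 at 5%, and 2819, 3843, 2431, 3603 and 1709.7 at 10% RPS. Every library of 5 and 10% RPS was below 4 libraries of 0% RPS and above replicate 2. With all libraries the log2 fold change at 10% RPS was -0.77 with SE 0.39, and the adjusted p was 0.253. Without replicate 2 Cyp2d26 fell by 1.04 (SE 0.22) at 10% RPS, or 2.06-fold, with an adjusted p of 0.000481 in DESeq2 and 0.0229 in edgeR. At 5% RPS it fell by 0.75 (SE 0.22, adjusted p = 0.0283, edgeR 0.104) in that set.

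A small intestinal marker also differed in the same set. Sis, the sucrase of the small intestinal brush border, had log2 fold changes of -1.34 (adjusted p = 0.0256) at 5% and -1.14 (0.0477) at 10% RPS without replicate 2 of 0% RPS. Of the 3 such markers in the table, Fabp6 and Alpi were not called. Their sum was 1816 to 7851 at 0%, 4786 to 10495 at 2%, 4511 to 9898 at 5% and 2311 to 5300.1 at 10% RPS, with the lowest value in replicate 2 of 0% RPS. Their part in the results for Cyp2d26 and the other members called without that library was not tested.

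Cyp2d34, the highest of the family, had 5761 ± 1510.3 normalised counts at 0% and 5432 ± 1528 at 10% RPS (log2 fold change -0.08, SE 0.21, and -0.15 without replicate 2). Cyp2d10 stood at 360.4 ± 82.1, 278 ± 32.7, 365 ± 60.9 and 338 ± 74.9 over the 4 diets, and its log2 fold change at 2% RPS was -0.38 with SE 0.17, adjusted p 0.502. Cyp2d9 had 157 ± 41.7 at 0% and 225 ± 68.3 at 10% RPS, a log2 fold change of 0.52 with SE 0.24, adjusted p 0.2. Cyp2d13 had 54.9, 192, 112, 94 and 224 at 0% RPS and 50.1, 73.7, 59.3, 142 and 69.6 at 10% RPS, a log2 fold change of -0.77 with SE 0.34, adjusted p 0.174. Leaving out replicate 2 of 0% RPS, the differences were -0.38 for Cyp2d10 at 2% RPS, 0.53 for Cyp2d9 and -0.61 for Cyp2d13 at 10% RPS, none past the test. Cyp2d13 was called only without replicate 1 of 0% RPS (-0.97, adjusted p = 0.0495) or replicate 4 of 10% RPS (-1.10, 0.0301). Of the 7 log2 fold changes in the family, 7 were negative at 2%, 3 at 5% and 4 at 10% RPS.

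Among the other Cyp2 genes, Cyp2e1, which oxidizes ethanol and other small molecules, varied widely between mice. It had 123, 534, 17.3, 152 and 80.9 normalised counts at 0% RPS, 269, 64.5, 742, 135 and 102 at 2%, 103, 82.4, 18.9, 31 and 65.1 at 5%, and 1602, 106, 331, 184 and 193 at 10% RPS. Its log2 fold change at 10% RPS was 1.41 with SE 0.85, adjusted p 0.348, and it was 0.17 without replicate 1 of 10% RPS and 2.37 (adjusted p = 0.0563) without replicate 2 of 0% RPS. At 5% RPS it was -1.59 with SE 0.85, adjusted p 0.329. That value rests on replicate 2 of 0% RPS, without which it was -0.64, adjusted p 0.734.

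Markers of adipocytes, a list chosen after these values were seen, moved with Cyp2e1. Adipoq, Plin1, Cidec and Fabp4 summed to 14568 in replicate 1 of 10% RPS, to 5849 in replicate 3 of 2% RPS and to 4541 in replicate 2 of 0% RPS, the libraries with the highest Cyp2e1. By diet the sum ranged over 1485 to 4541 at 0%, 2084 to 5849 at 2%, 1144 to 2405 at 5% and 2358 to 14568 at 10% RPS. Since the list was chosen for following Cyp2e1 in these libraries, it is no independent evidence. A fit with a score of these markers as covariate was run, but for the same reason it cannot serve as a test. The part of adipose tissue in the Cyp2e1 values was thus not tested.

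**Figure D4:**
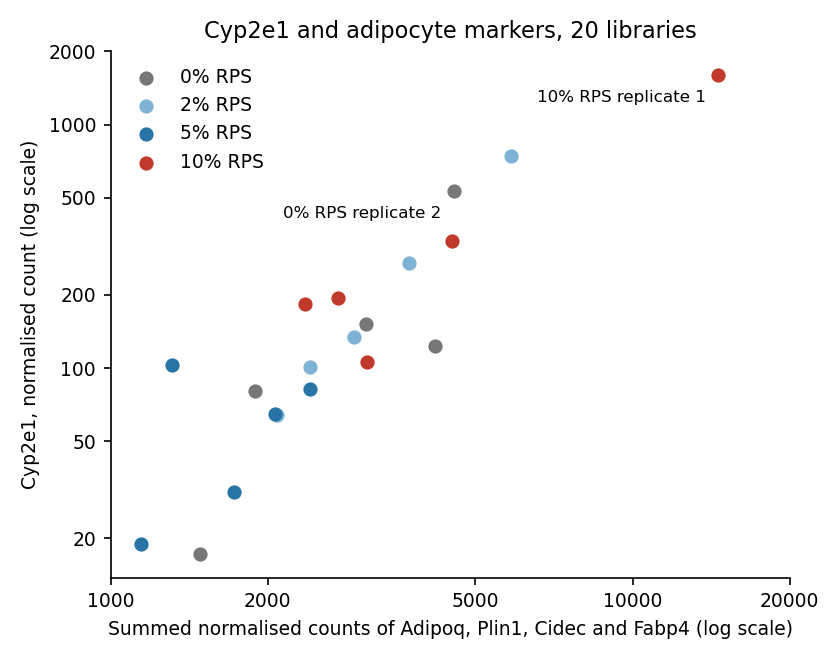
Normalised count of Cyp2e1 against the summed normalised counts of 4 adipocyte markers (both log axes), with 1 point per library and colour for diet. Replicate 1 of 10% RPS has the highest value on both axes (1602 and 14568).

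Cyp2w1, a P450 of the colon with few known substrates, had 231 ± 124 normalised counts at 0% RPS, 153 ± 27.9 at 2%, 161 ± 46.7 at 5% and 158 ± 90 at 10% RPS. Its log2 fold changes were -0.60, -0.52 and -0.55, with adjusted p of 0.646, 0.478 and 0.408, and without replicate 2 of 0% RPS they were -0.80, -0.73 and -0.75, also short of the test. The other 4 genes of this group had log2 fold changes from -0.31 to 0.00 at 10% RPS. Cyp3a13, which oxidizes steroids and drugs, had 7060.0 ± 2355 at 0% and 6037 ± 1498 at 10% RPS (log2 fold change -0.23, SE 0.22, adjusted p = 0.591, and -0.41 without replicate 2, also short of the test). Cyp3a44 was low, with 6.25 to 68.4 at 0% and 28.9 to 131 at 2% RPS, and its log2 fold change was 0.40 with SE 0.49, adjusted p 0.849 at 2% and 0.49 with SE 0.49, adjusted p 0.639 at 5% RPS. Without replicate 2 these were 0.12 and 0.21, and at 10% RPS the sign turned from 0.05 to -0.23.

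Many Cyp4 enzymes add oxygen near the end of fatty acid chains, and Cyp4b1 also activates some protoxins. Cyp4b1 (ENSMUSG00000028713, GRCm39 chr4:115476281-115504999, minus strand) had 4762, 630.0, 4722, 6226 and 7382 normalised counts at 0% RPS. It had 2455, 2649, 4768, 3422 and 2301 at 2%, 2046, 2965, 1960.2, 2665 and 3128 at 5%, and 3619, 4584, 2692, 3620.1 and 2029.6 at 10% RPS. As for Cyp2d26, every library of 5 and 10% RPS was below 4 libraries of 0% RPS and above replicate 2. With all libraries its log2 fold change was -0.61 at 2%, -0.89 at 5% and -0.52 at 10% RPS, with adjusted p of 0.683, 0.257 and 0.507. Without replicate 2 it fell by 1.18 (SE 0.26) at 5% RPS, or 2.26-fold (adjusted p = 0.002, edgeR 0.0411), and by 0.80 (SE 0.26) at 10% RPS, or 1.74-fold (adjusted p = 0.0351, edgeR 0.0589). Cyp4b1 overlaps Cyp4a32 on the opposite strand, and the strand setting of the counting is not given in the sources used here.

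Cyp4f14, a leukotriene hydroxylase, and its relative Cyp4f40 were named after their values were seen. Cyp4f14 had 7002 ± 1807 normalised counts at 0%, 6875 ± 316 at 2%, 6042 ± 1309.7 at 5% and 5200.4 ± 1308 at 10% RPS. Its slope on the log2 scale was -0.05 per percent RPS (adjusted p = 0.0824) with all libraries and -0.05 (0.00788, edgeR 0.0414) without replicate 2 of 0% RPS. Cyp4f40 had 3959 ± 1165 at 0% and 3693 ± 348 at 10% RPS, and its slope without replicate 2 was -0.03 (adjusted p = 0.0109, edgeR 0.0413). In that set 4 members were called for a trend, all lower, namely Cyp2d26, Cyp4f14, Cyp4f40 and Mgst2 (6.06% of members, beside 6.43% of all genes), and edgeR called 3 of them, without Mgst2 (2.78% of all genes). The unadjusted p of the trend was then under 0.05 for 16 members in DESeq2 (21% of all genes) and 18 in edgeR (20.3%).

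Cyp51, the lanosterol demethylase of cholesterol synthesis, had 1805 ± 399 normalised counts at 0% RPS, 2545 ± 768 at 2%, 2539 ± 1195 at 5% and 2354 ± 665 at 10% RPS. Its log2 fold changes were 0.50, 0.49 and 0.38, with adjusted p of 0.657, 0.442 and 0.529, and 0.62, 0.61 and 0.50 without replicate 2 of 0% RPS, none past the test. Cyp27a1 had 1297 ± 339.7 at 0% and 1047 ± 169.6 at 10% RPS (log2 fold change -0.31, SE 0.16, adjusted p = 0.272). Without replicate 2 of 0% RPS it was at -0.43 (adjusted p = 0.04), past the adjusted p and short of the fold.

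**Figure D5:**
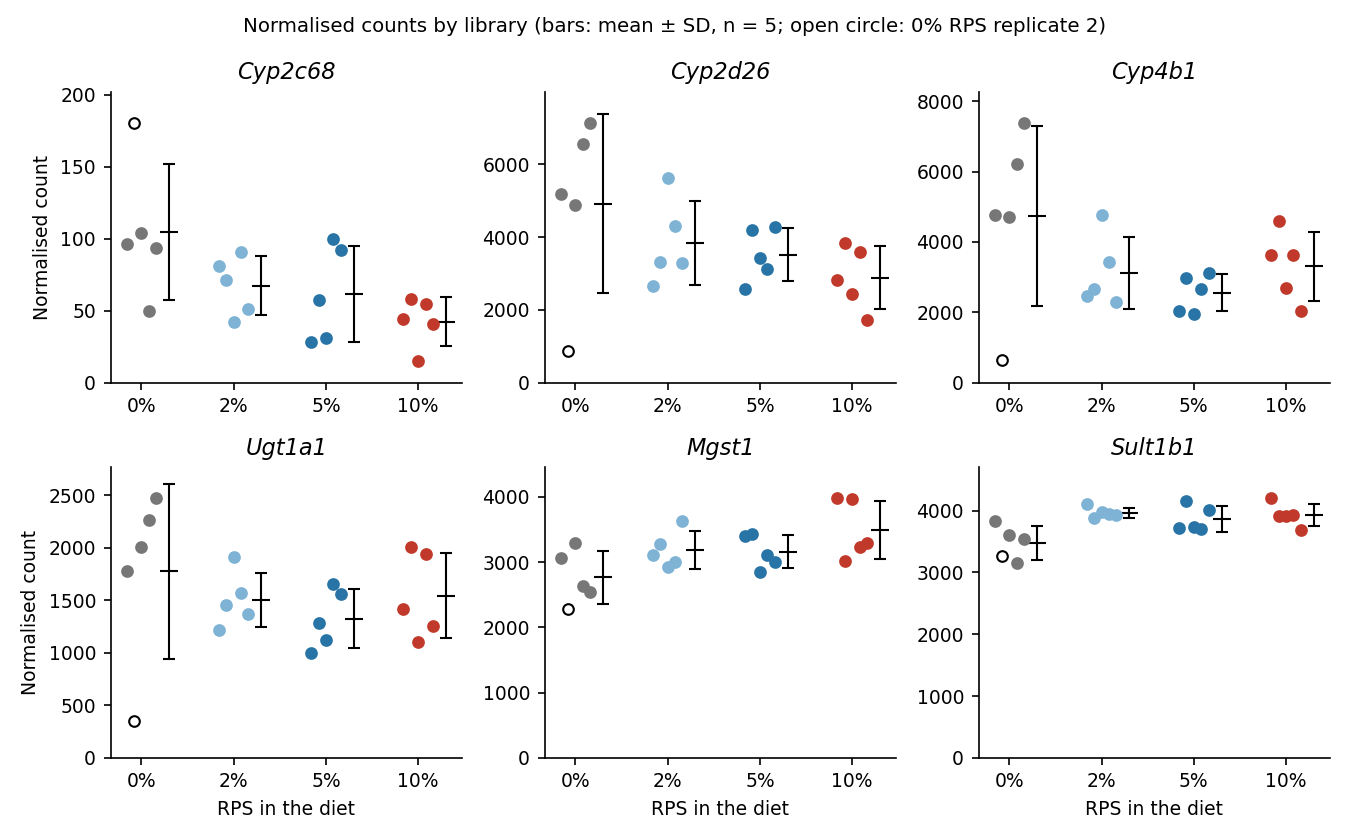
Normalised counts of Cyp2c68, Cyp2d26, Cyp4b1, Ugt1a1, Mgst1 and Sult1b1 in each of the 20 libraries by diet, with the mean ± SD of 5 libraries per diet and replicate 2 of 0% RPS as an open circle. That replicate is the highest library for Cyp2c68 (180.1) and the lowest for Cyp2d26 (857), Cyp4b1 (630.0), Ugt1a1 (353) and Mgst1 (2277).

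The Ugt1 enzymes conjugate bilirubin and phenols. Ugt1a1, the bilirubin enzyme (ENSMUSG00000089960, GRCm39 chr1:88139679-88147724, plus strand) and named after its values were seen, had 1777, 353, 2005, 2264 and 2467 normalised counts at 0% RPS and 995, 1281, 1121, 1655 and 1558 at 5% RPS. At 2% it had 1219, 1451, 1907, 1565 and 1372, and at 10% RPS 1413, 2002, 1102, 1941 and 1255. All 5 libraries of 5% RPS lay below 4 of the 0% RPS libraries, whereas those of 10% RPS overlapped with them. The log2 fold change at 5% RPS was -0.42 with SE 0.35, adjusted p 0.552. Without replicate 2 Ugt1a1 fell by 0.69 (SE 0.18) at 5% RPS, or 1.61-fold (adjusted p = 0.0126, edgeR 0.0767), and was at -0.46 (0.0958) at 10% RPS.

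Ugt1a7c, the highest Ugt1 gene, had 3476, 2058, 3605, 3273 and 3337 normalised counts at 0% RPS. It had 2643, 2889.6, 3017, 2835 and 2939.7 at 2%, 2506, 2888, 2398, 3107 and 2603 at 5%, and 3305, 3063, 3178, 3494 and 3409 at 10% RPS. Apart from replicate 2, the 0% RPS libraries were above all libraries of 2 and 5% RPS and overlapped with those of 10% RPS. Without replicate 2 it was 1.27-fold lower at 5% RPS (log2 -0.34, SE 0.07, adjusted p = 0.000847, edgeR 0.0411), short of the fold threshold, and its log2 fold change at 10% RPS was -0.06 (0.677). Ugt1a6a, named after its values were seen, was 1.41-fold lower at 5% RPS in that set (log2 -0.50, SE 0.14, adjusted p = 0.0202). Since the 3 genes share much of their sequence, they are not separate observations. Ugt2b34, the highest Ugt2 gene, had 11643 ± 3352 at 0% and 11316 ± 2133 at 10% RPS, and the 4 Ugt2 genes lay between -0.04 and 0.26 on the log2 scale at 10% RPS, 3 of them higher. Without replicate 2 they lay between -0.18 and 0.06 with 3 of 4 lower, and none passed the test in either set.

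Of the cytosolic glutathione transferases, 0 of 19 were called at 2, 5 or 10% RPS, with all libraries or without replicate 2 of 0% RPS. In DESeq2 the unadjusted p at 10% RPS was under 0.05 for 1 of the 7 Gstm genes and for 0 of the Gsta, Gstp, Gstt and Gsto genes. Gstm1 had 3979.6 ± 404 normalised counts at 0% and 3763 ± 298 at 10% RPS (log2 fold change -0.08, SE 0.08, and -0.05 without replicate 2). Gsto1 had 9480.3 ± 1759 and 10487 ± 855 (0.15, SE 0.11, and 0.04 without replicate 2), and Gstp1 had 1999 ± 487 and 2276 ± 337 (0.19, SE 0.14, and 0.06). Gsta4, which acts on lipid aldehydes, had 1631 ± 564 and 1775 ± 235 (0.12, SE 0.19, and -0.07 without replicate 2). Gstt3 had 1066 ± 23.8 at 0% and 1127 ± 102 at 10% RPS (0.08, SE 0.07, and 0.09 without replicate 2). Gsta1 was low, at 58.4 ± 27.1 at 0% and 82 ± 19.9 at 2% RPS (log2 fold change 0.49, SE 0.33, adjusted p = 0.676, and 0.35 without replicate 2), and at 10% RPS it was at 0.38 with and 0.24 without replicate 2.

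The microsomal transferases differed in sign. Mgst1, an enzyme of peroxide detoxification named after its values were seen, had 3059, 2277, 3293, 2639 and 2547 normalised counts at 0% RPS and 3974, 3011, 3961, 3224 and 3294 at 10% RPS. At 2% it had 3102, 3271, 2917, 2993 and 3635, and at 5% RPS 3399, 3433, 2841, 3115 and 3006. At 10% RPS it passed the adjusted p but not the fold, at 1.26-fold higher (log2 0.34, SE 0.10, adjusted p = 0.0333, edgeR 0.0938) with overlap between the diets, and without replicate 2 it was at 0.28 (0.0675). Mgst2, of leukotriene synthesis, had 5800.0, 4829.5, 7323, 6817 and 7305 at 0% RPS and 4942, 5358, 5446, 6392 and 5721 at 10% RPS. Its log2 fold change was -0.20 with SE 0.10, adjusted p 0.253, and without replicate 2 it was 1.22-fold lower (log2 -0.29, SE 0.09, adjusted p = 0.0188). Mgst3 had 10452 ± 1609 and 10898 ± 1426 (0.06, SE 0.11, and 0.01 without replicate 2).

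Among the sulfotransferases, Sult1b1, which sulfates thyroid hormones and small phenols and was named after its values were seen, had 3836, 3266, 3609, 3146 and 3543 normalised counts at 0% RPS. It had 4103, 3874, 3971, 3942 and 3931 at 2%, 3717, 4157, 3734, 3700.1 and 4016 at 5%, and 4197, 3922, 3916, 3924 and 3683 at 10% RPS. All 5 libraries of 2% RPS lay above all 5 of 0% RPS, and no other member had such a gap in a comparison with 0% RPS (1.52% of members, beside 0.74% of all genes at 2% RPS). At 5 and 10% RPS 0 members were free of overlap, beside 2.43% and 2.52% of all genes. At 10% RPS Sult1b1 passed the adjusted p but not the fold, at 1.13-fold higher (log2 0.18, SE 0.05, adjusted p = 0.0374, edgeR 0.113). Its adjusted p was 0.243 at 2% RPS and, without replicate 2, 0.0723 at 10% RPS.

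Sult2b1, which sulfates cholesterol, had 836, 621, 770.0, 590.2 and 800.4 normalised counts at 0% RPS and 1327, 690.5, 1089, 821 and 935 at 10% RPS. Its log2 fold changes were 0.30, 0.37 and 0.43 at 2, 5 and 10% RPS, with adjusted p of 0.574, 0.182 and 0.0819, and the last was 0.38, adjusted p 0.126, without replicate 2. Sult1a1 had 8841 ± 1203 at 0% and 8139 ± 914 at 10% RPS (-0.12, SE 0.15, and -0.14 without replicate 2), and 21.7% of its windows also occur elsewhere, chiefly in Sgf29. Sult1d1, which sulfates catechols, had 9528 ± 1978 and 11363 ± 643 (0.25, SE 0.12, adjusted p = 0.238, and 0.14 without replicate 2).

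Without replicate 2 of 0% RPS, 5 members had all libraries of 5% RPS below the rest of 0% RPS (7.58%, beside 2.28% of all genes), namely Cyp2d26, Cyp4b1, Ugt1a1, Ugt1a7c and Cyp2j9, the last named after its values were seen. At 10% RPS these were Cyp2d26 and Cyp4b1 (3.03%, beside 2.57%). In the same set 0 members lay wholly above 0% RPS at 5 or 10% RPS, beside 3.49% and 3.2% of all genes. With replicate 2 kept, 0 members were free of overlap at 5 or 10% RPS. That library was the lowest of the 20 for Cyp2d26, Cyp4b1, Ugt1a1 and Ugt1a7c. These gaps and their direction therefore rest on leaving it out and are no separate result.

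Other genes of the pathway were read from a list of 66, of which 56 were in the table. At 10% RPS 2 of the 56 were called, both lower, beside 0.9% of all genes. In the trend 2 rose and 2 fell, beside 4.29% of all genes, and 2 rose and 6 fell without replicate 2 of 0% RPS (6.43%). At 2 and 5% RPS 0 were called with all libraries (0.0239% and 0.438%). Adh1, an alcohol and retinol dehydrogenase, had 2689, 3775, 1799, 3161 and 2252 normalised counts at 0% RPS and 1539, 2497, 1429.8, 1839 and 1187 at 10% RPS. It fell by 0.69 on the log2 scale (SE 0.21, adjusted p = 0.0348, edgeR 0.108), and without replicate 2, its highest library of 0% RPS, the difference was -0.54 (0.0905). Inmt, a methyltransferase of indole amines, had 94.3, 68.7, 80.9, 100.3 and 189 at 0% and 28.2, 57.8, 17.4, 79.5 and 20.3 at 10% RPS. It fell by 1.38 (SE 0.36, adjusted p = 0.00835, edgeR 0.0638), and by 1.5 (0.00292, edgeR 0.0295) without replicate 2.

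Ces1f, a carboxylesterase, rose in the trend by 0.06 per percent RPS (adjusted p = 4.67e-05, edgeR 0.0115) and had 2338 ± 136 normalised counts at 0% and 3368 ± 564 at 10% RPS. Ugp2, which makes UDP-glucose, the precursor of UDP-glucuronic acid, rose by 0.02 per percent RPS (adjusted p = 0.0217, edgeR 0.0823). It had 5096 ± 442 at 0% and 5848 ± 370.2 at 10% RPS. Without replicate 2 of 0% RPS the list had 2 calls at 5% RPS (0.827% of all genes) and 3 at 10% RPS (1.6%), all lower. Among the latter were Abcb1a and Ppara, named after their values were seen. Abcb1a, an efflux pump, was at 4964 in replicate 2, at 18097 to 26355 in the other 0% RPS libraries and at 10136 to 16668 at 10% RPS (log2 -0.75, SE 0.15, adjusted p = 0.00027). Ppara, a fatty acid receptor that drives Cyp4 genes in liver, was at 351, 1078 to 1432 and 663 to 931 (log2 -0.66, SE 0.13, adjusted p = 0.000166).

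Of the regulators named at the start, none was called. Ahr had 452 ± 66.6 normalised counts at 0% and 412 ± 74.5 at 10% RPS (log2 fold change -0.13, SE 0.13, adjusted p = 0.597, and -0.09 without replicate 2). Nr1i2 had 3085 ± 682 and 2934 ± 259.6 (-0.07, SE 0.12, adjusted p = 0.784, and -0.19 without replicate 2). Nfe2l2 had 8542 ± 1102 and 7539 ± 636 (-0.18, SE 0.09, adjusted p = 0.242), and was at -0.25 (0.0322) without replicate 2, past the adjusted p and short of the fold. Nr1i3, a receptor related to Nr1i2, was not analysed here.

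Some markers of epithelial and other cells also differed. With all libraries Epcam, an epithelial surface protein, was at log2 0.19 at 10% RPS (adjusted p = 0.00666, edgeR 0.095). Krt20, a keratin of mature colonocytes, was at 0.47 (adjusted p = 0.0193, edgeR 0.08). Both were short of the fold threshold, beside 0.34 for Mgst1 and 0.18 for Sult1b1. Epcam was at 0.18 and Krt20 at 0.49 when replicate 2 of 0% RPS was left out. The other colonocyte markers were mixed at 10% RPS with all libraries. Car1 (0.63), Car4 (0.31) and Guca2a (0.02) were higher, Slc26a3 (-0.43) and Aqp8 (-0.93) were lower, and none passed the adjusted p. Epcam, Car4 and Agr2 rose in the trend with all libraries (adjusted p = 0.023, 0.0329 and 0.0358 in DESeq2). In edgeR the trend had an adjusted p of 0.122 for Epcam and 0.0872 for Car4. The other 6 epithelial markers were not past the adjusted p at 10% RPS, and the sum of all 7 was 217538 to 252555 at 0% and 221121 to 289464 at 10% RPS. Without replicate 2 the goblet cell genes Muc2 and Agr2 were called higher at 10% RPS (log2 0.70 and 0.71), the other 4 goblet markers were not, and the B cell gene Cd79a was called higher (1.35, adjusted p = 0.0416). The smooth muscle markers had a median log2 fold change of -0.02 at 10% RPS in that set and -0.20 with all libraries, with none called. The part of these markers in the results of the members was not tested.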

How the data were processed

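RNA from the PC of 20 mice, 5 per diet and 1 library per mouse, was made into stranded mRNA libraries by the authors and read from 1 end over 50 bases. The authors trimmed the reads in CLC Genomics Workbench, mapped them to GRCm39 and deposited raw counts per gene for 12701 genes. The strand setting, the handling of reads that fit several genes and the rule that kept these genes are not given in the sources used here. Totals were 20581013 to 35083751 counts per library.

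Symbols and lengths came from GENCODE M39 on GRCm39, in which 12682 of the 12701 identifiers were found. Promoters came from RefSeq on GRCm38.p6. The counts were fitted in DESeq2 1.42.0 (R 4.3.3) over all 20 libraries, with Benjamini-Hochberg adjustment over the table and unshrunken fold changes. Calls needed an adjusted p up to 0.05 and at least 1.5-fold, and a trend per percent RPS by the adjusted p alone. edgeR 4.0.16 (quasi-likelihood, TMM factors, 12366 genes kept by its default expression filter with diet as the group) was the alternative. Both were tested on simulated data. Figures used Python 3.11.15, pandas 2.3.3 and matplotlib 3.10.9. P-values measure the spread between these mice.

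Members named were those called, the 5 largest and 5 smallest fold changes of each comparison with 0% RPS, and the 10 highest levels per length. Also named were the highest of each family, pathway genes called and the regulators given at the start. Members, lists and this rule were chosen with earlier results of these data known. Alternatives covered the scaling, filters, thresholds, covariates and leaving out each library.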

Additional observations from a re-analysis of the deposited data

Results flagged for a closer look

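In each diet the highest or lowest of the 5 libraries was compared with its nearest neighbour for 28 named members, which made 112 groups, and 9 groups had a gap above Dixon's critical value of 0.71 of the group's range. Chance alone marks about 1 group in 20 when groups are independent, normally distributed and not selected. Many of these members were named for extreme fold changes and all share the same libraries, so that rate does not apply directly. Of the 9 groups, 3 were marked by replicate 2 of 0% RPS and 6 lay outside 0% RPS. As normalised counts, the values were as follows. Cyp2c65 stood at 4257 in replicate 2 of 0% RPS, with the nearest library at 10042, and it stood at 12308 in replicate 3 of 2% RPS, with the nearest library at 10236. Cyp2d13 stood at 142 in replicate 4 of 10% RPS, with the nearest library at 73.7. Cyp2e1 stood at 534 in replicate 2 of 0% RPS, with the nearest library at 152, and it stood at 1602 in replicate 1 of 10% RPS, with the nearest library at 331. Cyp2w1 stood at 202 in replicate 4 of 2% RPS, with the nearest library at 147. Cyp3a44 stood at 131 in replicate 3 of 2% RPS, with the nearest library at 52.4. Gsta1 stood at 121 in replicate 2 of 5% RPS, with the nearest library at 64.4. Ugt1a7c stood at 2058 in replicate 2 of 0% RPS, with the nearest library at 3273.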

How the results depend on the processing

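No paired analysis was possible because no replicate number in the labels links mice of different diets. At 10% RPS the count of members called was 1 with DESeq2, 0 with edgeR and 2 (Cyp2c68 and Cyp2e1) with a smooth muscle score as covariate. It was 3 without the fold threshold, and 6 without the threshold and replicate 2 of 0% RPS. It was 0 without replicate 5 of 2% RPS and replicates 4 and 5 of 10% RPS. Their label numbers are higher than those of the other libraries, and what the numbers stand for is not given in the sources used here. That fit also had fewer libraries of 10% RPS, and the part of group size in the lost call was not tested. At 5% RPS edgeR without that replicate called 1 against 0 in the full DESeq2 fit. The trend, 1 member with DESeq2, gave 0 with edgeR, 2 (Cyp2c68 and Cyp4f14) with the smooth muscle covariate, 0 within the starch diets and 3 with edgeR without replicate 2. Leaving out 1 library at a time gave 0 to 3 members at 5%, 0 to 2 at 10% RPS, 0 to 4 in the trend and 0 to 2 free of overlap at 10% RPS. It moved the median log2 fold change over -0.0443 to 0.0287 at 2% and -0.0538 to 0.0647 at 10% RPS. Of 65 members, 12 turned sign at 10% RPS without replicate 2 of 0% RPS. Among the named members the sign there turned for 8 when 1 library was left out, none past the test with all libraries, with log2 fold changes of -0.1 to 0.24 for Cyp2c55, -0.22 to 0.0146 for Cyp2d10, -0.253 to 0.0709 for Cyp2d34, -0.231 to 0.307 for Cyp3a44, -0.0667 to 0.233 for Gsta4, -0.00749 to 0.141 for Mgst3, -0.0567 to 0.115 for Ugt1a7c and -0.183 to 0.0659 for Ugt2b34. The alternatives without the fold threshold and replicate 2, with edgeR and without it, and with the adipocyte score were chosen after seeing the data. Where a setting changed a call, the cause was not tested. Depth limits Gsta13 most, whose counts reached 0, and 3 counts are a CPM of 0.0855 to 0.146 in a library.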
